A study of Homo sapiens with 6 samples.

Results

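Granulocytes and monocytes are built by a small set of transcription factors that switch on stores of granule proteins, a superoxide-producing oxidase and a set of immune receptors. The 33 genes described here were taken by name as members of that programme: 8 transcription factors, 6 granule proteins, 3 calgranulins, 4 subunits of the phagocyte NADPH oxidase, 8 surface genes and 4 other myeloid genes. All 33 names matched a row among the 61487 gene rows of the count table. They were followed in K562, an established human line from chronic myeloid leukaemia in blast crisis that carries the BCR-ABL1 fusion and is best known for its erythroid and megakaryocytic traits. RNA came from 3 libraries of K562 cells sensitive to azacitidine and from 3 libraries of resistant K562 cells, each set labelled as biological replicates. Azacitidine is a cytidine analogue that is built into nucleic acid and traps DNA methyltransferases. The resistant cells were derived by keeping K562 in rising azacitidine for more than 4 months, and whether they are 1 clone is not given in the sources used here. Both groups grew in RPMI medium with 10% fetal bovine serum. The names of both sets of libraries carry the letters NT, which the labels do not spell out, and no drug exposure at harvest is recorded in them. The comparison asks which genes differ between the lines once resistance is established.

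PU.1, the product of SPI1, is an ETS-family factor that opens and activates most myeloid promoters. The C/EBP factors act beside it, with C/EBPα early, C/EBPε late in granulocytes, and C/EBPβ and C/EBPδ in monocytes and in inflammation. IRF8 and KLF4 favour the monocyte branch, and GFI1 is a repressor needed for neutrophil formation. Their targets include lysozyme, the primary granule proteases and the membrane-bound oxidase core of CYBB and CYBA, which cytosolic NCF1 and NCF4 join on activation. Differentiation arrested at the blast stage is a hallmark of acute myeloid leukaemia, where azacitidine is used.

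No member was higher in the resistant cells and 9 were lower. Lysozyme (LYZ) fell 9.48-fold, LST1 8.43-fold, AIF1 5.64-fold, PRTN3 4.98-fold, GFI1 4.30-fold, CYBB 4.06-fold, NCF4 3.87-fold, TYROBP 3.72-fold and CEBPD 1.75-fold. The programme was incomplete in both lines: 5 of the 33 genes had no read in any library, 8 had between 1 and 10 reads over all 6 libraries, and 4 more were too low to test. The 16 remaining genes were tested with edgeR's quasi-likelihood test among 20891 genes, with Benjamini-Hochberg adjustment over all of them and a call at adjusted p below 0.05. The 9 lower calls are to be read against 13.1% of all tested genes called lower, and the 0 higher calls against 9.83% called higher. CEBPA was the only tested member with a positive change, with an unadjusted p of 0.590 by edgeR. DESeq2 and limma-voom, run on the same counts, also called 0 members higher. Lower calls of at least 2-fold numbered 8 of 16 members, against 8.97% of all tested genes. In 12 of the 16 members every resistant library lay below every sensitive library, a pattern seen in 21.4% of all tested genes, and in 0 members did every resistant library lie above, against 18.7%. The median log2 fold change of the 16 members was −1.78, with a range from −3.25 to 0.19, beside 0.03 for all tested genes. Low genes had to pass a filter on their counts, so these shares describe the 16 tested genes and not all 33. A gene could pass on the sensitive libraries alone. PRTN3 had 19, 10 and 2 counts in the resistant libraries and LST1 had 7, 22 and 20. CEBPE had 14, 4 and 28 counts there and KLF4 had 8, 16 and 22. None of these genes would have passed on the resistant libraries alone. PRTN3 and LST1 are among the 9 lower calls. PRTN3, LST1 and CEBPE are among the 12 members whose resistant libraries all lay below. The members and the further lists below were chosen with earlier results of these data known, so their shares are description and no independent support. In bulk RNA, fewer cells expressing a gene and less RNA per cell cannot be told apart.

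**Figure D1:**
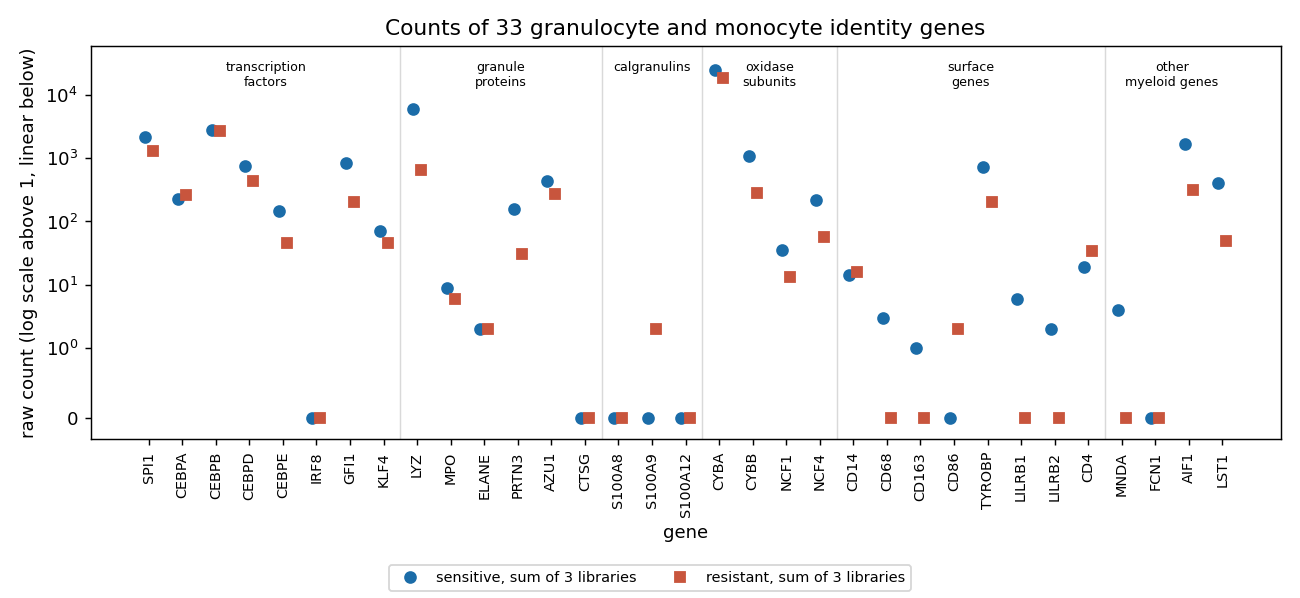
Raw counts of the 33 genes, summed over 3 sensitive libraries (blue circles) and over 3 resistant libraries (red squares), by role. The vertical axis is logarithmic above 1 and linear below it. CYBA, LYZ and CEBPB stand highest in the sensitive cells, while IRF8, CTSG, S100A8, S100A12 and FCN1 lie at 0 in both groups.

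Total counts ran from 33007642 to 43006918 per library, so that 3 counts, the limit a count of 0 allows, amount to between 0.0733 and 0.0902 CPM, the read count relative to the library total after scaling by the TMM method. These limits cover counting error only, and they would be 2 times as high if the mates of a pair were counted singly. The first principal component of all tested genes held 65.1% of the variance and separated the lines, and the second set the libraries numbered 3 of both lines apart from the others. Mitochondrial ribosomal RNA took 8.54% of the counts in resistant replicate 3 and between 12.8% and 17.8% in the others. Leaving out both libraries numbered 3 raised the lower calls among the 16 tested members from 9 to 14 and left the higher calls at 0. Calls rose over all genes too. Lower calls went from 2741 of 20891 tested genes to 5021 of 21908, and higher calls from 2054 to 4645. The labels name the cell type myeloblast. MPO, the myeloperoxidase gene, gave between 2 and 4 counts in each library.

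Promoter sequence was available from RefSeq for 26 of the 33 genes, as windows from 250 bases before to 50 after an annotated start (GRCh38.p14), and not for SPI1, CEBPD, LYZ, MPO, ELANE, NCF4 and CD4. The windows were searched on both strands for the PU.1 core GAGGAA and for the C/EBP core TTGCNNAA. The PU.1 core was present in 27.9% of all 35116 windows of that length and in 23 of the 40 windows of the members, which belong to 19 genes. The C/EBP core was present in 10.5% of all windows and in 8 of the 40. Each of the 6 lower genes with a window held the PU.1 core in at least 1 of its windows, as did 2 of the 6 tested genes that were not called and 11 of the 14 untested genes. Genes with several annotated starts have several windows and so more places for a match, and GFI1 held the PU.1 core only at a later start. The share of 27.9% is per window, and no share per gene was computed, so these counts by gene have no background beside them. The lower genes LYZ, CEBPD and NCF4 had no window. A match describes these letters and no binding. The stretches below end where the first GENCODE exon begins. They are shown because these 3 of the 6 lower genes have a core in that stretch at their most upstream start, while GFI1, LST1 and CYBB have none there. Capitals mark a PU.1 core or a C/EBP core, read 5′ to 3′ along the gene's strand.
TYROBP: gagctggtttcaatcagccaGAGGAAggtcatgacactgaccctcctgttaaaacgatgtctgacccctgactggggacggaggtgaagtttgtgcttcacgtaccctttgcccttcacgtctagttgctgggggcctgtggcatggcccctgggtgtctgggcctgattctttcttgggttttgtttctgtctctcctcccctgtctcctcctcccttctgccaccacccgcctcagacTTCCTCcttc
PRTN3: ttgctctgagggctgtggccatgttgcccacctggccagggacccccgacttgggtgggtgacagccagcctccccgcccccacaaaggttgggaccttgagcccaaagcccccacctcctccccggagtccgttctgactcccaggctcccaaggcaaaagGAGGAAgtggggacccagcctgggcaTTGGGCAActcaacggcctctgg
AIF1: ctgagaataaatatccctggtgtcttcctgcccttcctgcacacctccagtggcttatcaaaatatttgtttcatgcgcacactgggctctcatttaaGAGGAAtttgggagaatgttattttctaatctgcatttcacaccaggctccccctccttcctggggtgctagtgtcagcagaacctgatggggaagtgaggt

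The TYROBP stretch (chr19:35908296-35908545, minus strand) holds the PU.1 core 230 bases before the start on the gene's strand and 10 bases before it on the opposite strand. The PRTN3 stretch (chr19:840749-840959, plus strand) holds a PU.1 core 88 bases before the start and a C/EBP core 62 bases before it. The AIF1 stretch (chr6:31614984-31615183, plus strand) holds a PU.1 core 152 bases before the start. In CYBB the PU.1 core lies 48 bases before the RefSeq start, inside the exon that GENCODE 29 annotates. LST1 has PU.1 cores 114 and 92 bases before its most upstream RefSeq start, likewise within an annotated exon, and further matches before its later starts. In GFI1 the most upstream window has neither core, while a window of a later start holds the C/EBP core and another the PU.1 core.

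Among the 8 transcription factors, GFI1 and CEBPD were lower in the resistant cells, 5 were tested without a call, and IRF8 had no read in any library. GFI1 (chr1:92474762-92486876, GRCh38) stood at 7.72, 6.52 and 8.52 CPM in sensitive replicates 1, 2 and 3 and at 2.22, 1.69 and 1.39 CPM in the resistant replicates. The groups were far apart, and the lowest sensitive library held more than every resistant one. Its log2 fold change was −2.11 ± 0.27 (SE, n = 3 per group, adjusted p = 4.54e-04 by edgeR). CEBPD, on chromosome 8, gave 6.99, 6.43 and 6.86 CPM across the sensitive replicates, against 3.65, 4.70 and 3.25 CPM in resistant cells. These groups did not overlap either, but the shift was small, with a log2 fold change of −0.80 ± 0.23 (adjusted p = 0.0325 by edgeR). The call on CEBPD was lost in 8 of 19 alternative analyses, among them leaving out sensitive replicate 1 (adjusted p = 0.109) or scaling by library totals alone (adjusted p = 0.0893). Adjusted p for CEBPD ranged from 0.00678 to 0.109 over the alternatives.

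SPI1 (chr11:47354860-47378576) stood at 19.7, 19.9 and 19.8 CPM in the sensitive libraries, nearly the same in each. The resistant libraries gave 15.3, 12.5 and 7.19 CPM, all below the sensitive ones but spread over a wider range. The log2 fold change was −0.77 ± 0.25, and the adjusted p of 0.0535 missed the threshold. SPI1 was called lower in 10 of the 19 alternatives, with adjusted p between 0.00304 and 0.137, and its log2 fold change lay between −1.01 and −0.53 in all of them. DESeq2 gave −0.76 (adjusted p = 0.0212).

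The other 3 C/EBP genes were not called. CEBPB, the most abundant of the factors per kilobase of exon, gave 25.2, 29.9 and 22.1 CPM in sensitive cells, against 15.8, 22.7 and 32.2 CPM in resistant cells. The groups overlapped, and its log2 fold change was −0.13 ± 0.25 (adjusted p = 0.756). CEBPA gave 2.52, 2.19 and 1.34 CPM against 1.97, 2.09 and 2.86 CPM. Those groups overlapped too, with a log2 fold change of 0.19 ± 0.34 (adjusted p = 0.729), the single positive value among the 16. The sign of both genes depended on the setting: CEBPB gave 0.032 when scaled by library totals alone, and CEBPA gave −0.037 without sensitive replicate 3. CEBPE, the granulocytic member, gave 1.64, 1.29 and 0.938 CPM against 0.388, 0.101 and 0.734 CPM. Its groups did not overlap, but the resistant libraries differed among themselves by more than the gap between the groups. The log2 fold change of −1.66 ± 0.61 was not called (adjusted p = 0.0778). Without resistant replicate 3 it was −2.43, with an adjusted p of 0.0136. KLF4 was the lowest tested factor, between 0.402 and 0.953 CPM in sensitive cells and from 0.222 to 0.577 CPM in resistant cells, with overlapping groups and a log2 fold change of −0.61 ± 0.55 (adjusted p = 0.464). An antisense gene shares 231 exon bases with CEBPB, and the strand setting of the counting is not given in the sources used here.

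**Figure D2:**
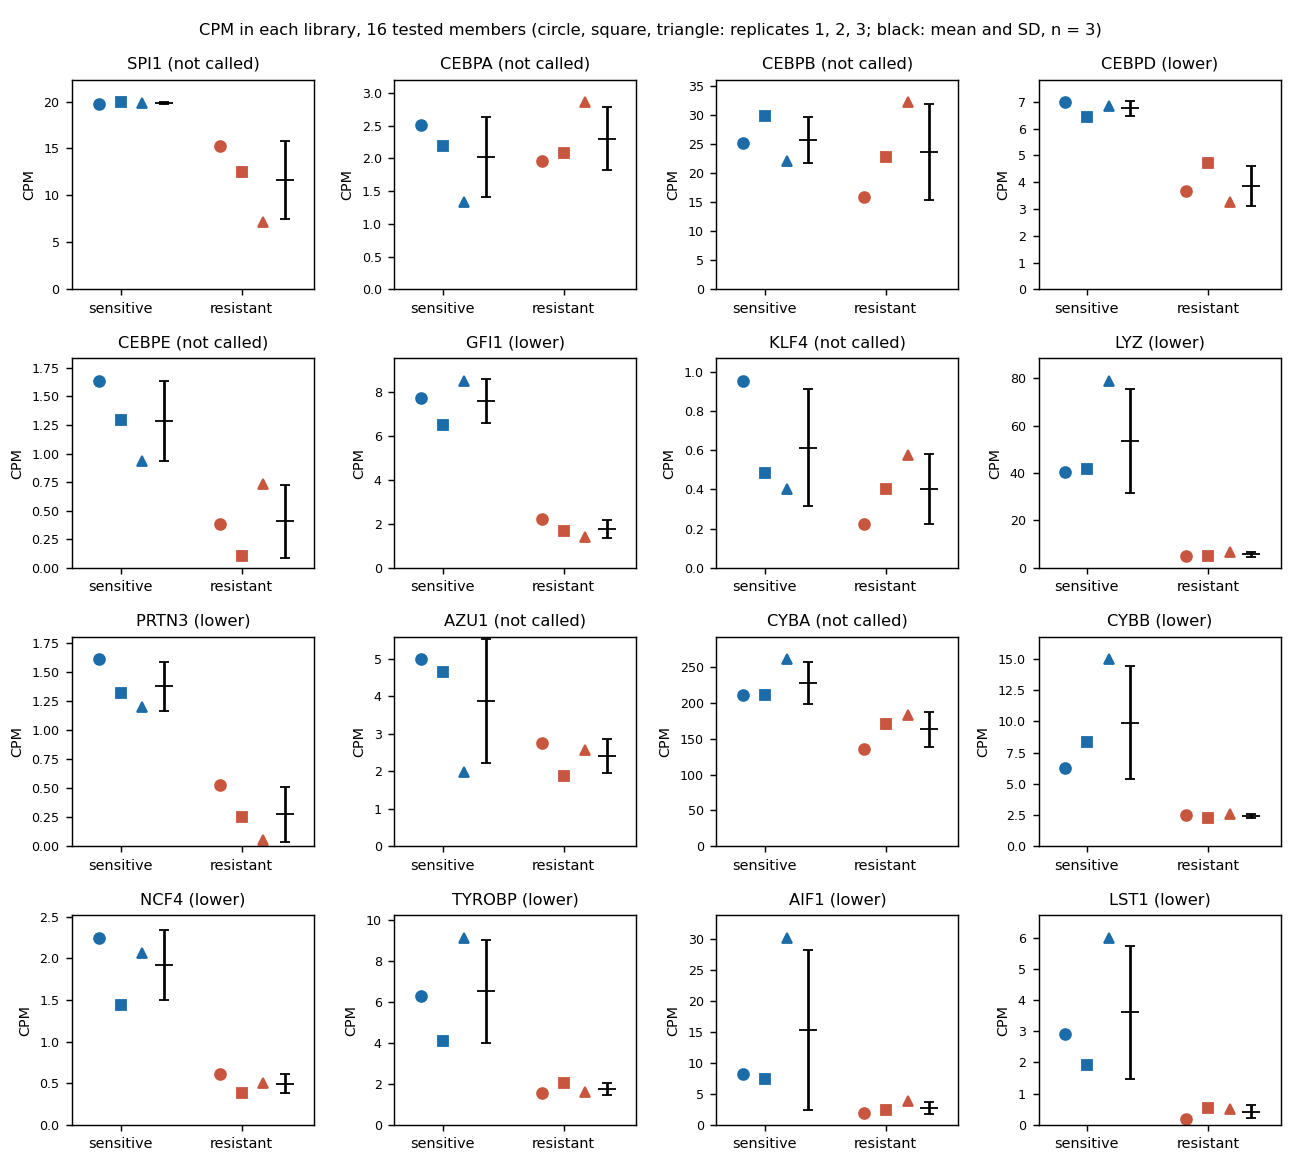
CPM of the 16 tested genes in each library, sensitive in blue and resistant in red, with circles, squares and triangles for replicates 1, 2 and 3 and black bars for the mean and SD (n = 3). Each panel has its own vertical axis from 0. The resistant points of GFI1, LYZ, CYBB and NCF4 lie far below the sensitive ones, while those of CEBPA, CEBPB, KLF4 and AZU1 overlap with them.

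A list of 27 further blood-cell transcription factors moved in both directions. Of its 23 tested genes 6 were lower (26.1% beside 13.1% of all tested genes) and 3 were higher (beside 9.83%). The median log2 fold change of the list was −0.16. VDR, the vitamin D receptor that drives monocyte maturation, fell from 9.33 ± 1.86 to 2.81 ± 0.55 CPM (SD, n = 3), a log2 fold change of −1.73. BATF3, a dendritic cell factor, fell by 2.32 on the log2 scale, and IRF1, an interferon-induced factor, fell by 0.96. LMO2, a bridging protein of the stem and erythroid complex, fell by 0.94. MAF, a macrophage factor, rose from 0.0464 ± 0.0451 to 1.15 ± 0.32 CPM, with a sensitive mean under the limit that a count of 0 allows per library. MITF, the mast cell and osteoclast factor, rose from 19.7 ± 1.65 to 33.5 ± 1.42 CPM, and IRF5, an interferon regulatory factor of macrophages, rose by 1.40 on the log2 scale.

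Of the 6 granule protein genes, LYZ and PRTN3 fell, AZU1 was not called, MPO and ELANE were too low to test, and CTSG had no read. LYZ (chr12:69348341-69354234) encodes lysozyme, the muramidase of neutrophil granules and the main secretory product of monocytes. It stood at 40.4, 41.5 and 78.9 CPM in the sensitive libraries and at 5.01, 5.13 and 6.82 CPM in the resistant ones. Sensitive replicate 3 was the highest of all, and even the lowest sensitive library held several times the highest resistant one. The log2 fold change of LYZ was −3.25 ± 0.29 (adjusted p = 4.92e-05 by edgeR), and it was called lower in all 19 alternatives. An antisense gene overlaps 34.0% of the exon bases of LYZ and had 0 counts in every library.

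PRTN3, AZU1 and ELANE encode proteinase 3, azurocidin and neutrophil elastase, serine protease family members of the primary granule, and lie side by side on chromosome 19. The gap between AZU1 and PRTN3 is 8941 bases and that between PRTN3 and ELANE 2838 bases. PRTN3 (chr19:840960-848175) gave 1.61, 1.32 and 1.21 CPM in the sensitive libraries. The resistant libraries gave 0.526, 0.252 and 0.0525 CPM, below every sensitive value and with the last one under the limit that a count of 0 allows. Its log2 fold change was −2.32 ± 0.63 (adjusted p = 0.0253). The call was lost in 4 of 18 alternatives, such as leaving out sensitive replicate 1 (adjusted p = 0.0861), and without resistant replicate 1 the log2 fold change was −3.14. AZU1, the neighbour, gave 4.99, 4.66 and 1.98 CPM against 2.74, 1.89 and 2.57 CPM. Sensitive replicate 3 lay among the resistant values, so the groups overlapped, and the log2 fold change of −0.69 ± 0.37 was not called (adjusted p = 0.216). Without that library it was −1.02 (adjusted p = 0.0322). ELANE had 2 counts in each group, and MPO, the myeloperoxidase gene, had 9 counts in the sensitive and 6 in the resistant libraries.

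The 35 further granule genes had 20 tested members. Of these 8 were lower (40% beside 13.1% of all tested genes) and 1 was higher (beside 9.83%). Their median log2 fold change was −0.51. CTSS, the cathepsin of antigen-presenting cells, fell from 64.1 ± 14.5 to 14.6 ± 2.58 CPM, a log2 fold change of −2.13. SRGN, the proteoglycan that packs granule proteases, fell from 116 ± 3.91 to 49.4 ± 13.2 CPM. CST7, a leukocyte cystatin, fell from 0.932 ± 0.0508 to 0.061 ± 0.0397 CPM, a mean under the limit that a count of 0 allows per library. RNASE6, a myeloid ribonuclease, fell by 2.99 on the log2 scale. CLC, the eosinophil and basophil crystal protein, rose from 0.0658 ± 0.0576 to 1.21 ± 0.86 CPM, with its sensitive mean also under that limit.

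The calgranulins, calcium-binding S100 proteins that make up a large share of neutrophil cytosol, were at or near 0 in both lines. S100A8 and S100A12 had no count in any library, and S100A9 had 2 counts, both in resistant replicate 2. The 3 genes lie within one S100 cluster on chromosome 1, with 12678 bases between S100A9 and S100A12. Of 8 other S100 genes that could be tested, 2 were higher, beside 9.83% of all tested genes called higher. The 1 lower gene made a share of 12.5%, near the 13.1% of all tested genes. S100A6 stood at 0.0244, 0.120 and 0.161 CPM in the sensitive libraries and at 124, 162 and 170 CPM in the resistant ones. S100A4 rose from 7.82 ± 7.34 to 26.7 ± 6.91 CPM (adjusted p = 0.0439), and S100A11 fell from 90.3 ± 11.9 to 31.2 ± 11.9 CPM.

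Of the 4 oxidase subunit genes CYBB and NCF4 fell, CYBA was not called and NCF1 was too low to test. CYBB (chrX:37780011-37813461), the catalytic gp91phox subunit that carries electrons across the membrane, stood at 6.31, 8.36 and 15.0 CPM in the sensitive libraries. The resistant libraries gave 2.49, 2.24 and 2.57 CPM, close to one another and all below the sensitive range. CYBB had a log2 fold change of −2.02 ± 0.33 (adjusted p = 0.00191). NCF4 (chr22:36860988-36878015), the cytosolic p40phox subunit, gave 2.25, 1.44 and 2.06 CPM against 0.609, 0.377 and 0.498 CPM. Its groups were well apart, with a log2 fold change of −1.95 ± 0.39 (adjusted p = 0.00570). CYBA (chr16:88643283-88651152) encodes p22phox, which stabilises CYBB and also serves other NADPH oxidases. It was the most abundant member in both lines, at 211, 212 and 261 CPM in sensitive cells and at 135, 171 and 183 CPM in resistant cells. All resistant values were below all sensitive ones, but the log2 fold change of −0.48 ± 0.18 was not called (adjusted p = 0.0806) and passed only in 3 of 19 alternatives, such as leaving out resistant replicate 3 (adjusted p = 0.0346). NCF1, the p47phox organiser, had 10, 10 and 15 counts against 7, 3 and 3 counts and was not tested. It has the near-identical copies NCF1B and NCF1C, so its reads may have been split between them: NCF1C had between 12 and 16 counts in the sensitive and between 2 and 5 in the resistant libraries.

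Of 11 further oxidase genes 8 were tested, with 1 lower and 2 higher. The lower share of 12.5% lay near the 13.1% of all tested genes. The 2 higher calls among 8 stand beside 9.83% of all tested genes called higher. RAC2, the blood-cell GTPase that switches the oxidase on, fell from 56.1 ± 4.48 to 25.1 ± 7.71 CPM, a log2 fold change of −1.16. RAC1, its broadly expressed relative, was at 116 ± 14.5 and 142 ± 7.65 CPM and was not called (adjusted p = 0.213). RAP1A, a small GTPase found with the flavocytochrome, rose from 26.1 ± 1.93 to 56.6 ± 10.6 CPM. NOX5, a calcium-activated oxidase that works without the cytosolic subunits, rose from 0.0363 ± 0.032 to 2.14 ± 1.09 CPM. Its sensitive mean lay under the limit that a count of 0 allows per library. RAC1 was named after its values were seen, as were ITGAM, CSF2RA and CSF3R.

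**Figure D3:**
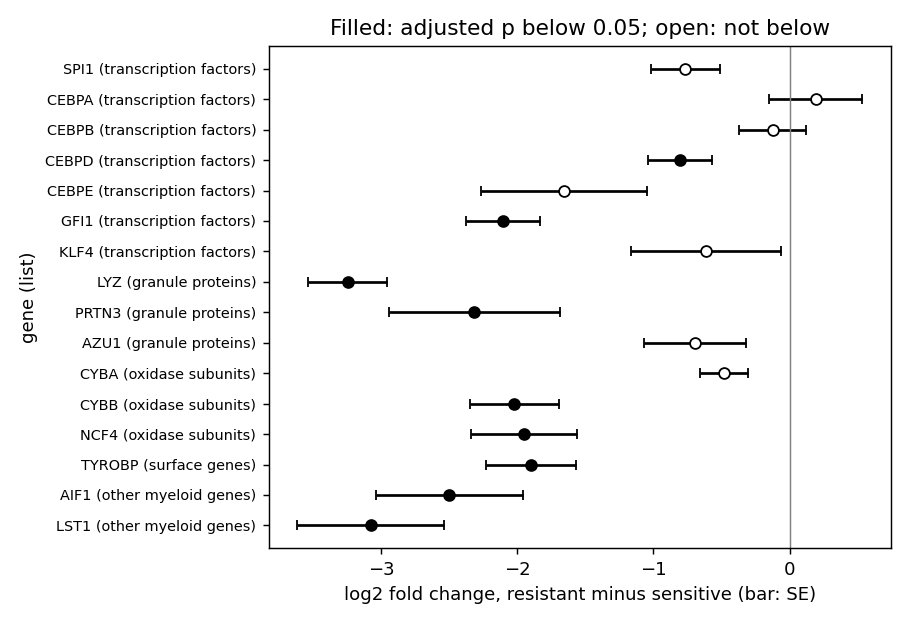
Log2 fold change of the 16 tested genes, resistant minus sensitive, with SE bars (edgeR, n = 3 per group), ordered by role. Filled points had an adjusted p below 0.05, open points did not. LYZ at −3.25 and LST1 at −3.08 lie farthest from 0, and CEBPA at 0.19 is the one point to the right of 0.

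Among the 8 surface genes only TYROBP was high enough to test. TYROBP (chr19:35904401-35908295) encodes DAP12, the adaptor with which TREM and other activating receptors signal. It gave 6.28, 4.12 and 9.13 CPM across the sensitive replicates and 1.58, 2.06 and 1.6 CPM across the resistant ones. The sensitive libraries varied, yet each lay above all the resistant ones, and the log2 fold change was −1.90 ± 0.33 (adjusted p = 0.00288). The other 7 were too low to test. CD14, the lipopolysaccharide co-receptor, had 14 counts in the sensitive and 16 in the resistant libraries. CD163, the haemoglobin scavenger receptor, had 1 count in all, and CD86, a costimulatory ligand, had 2. CD4, which monocytes also carry, had 19 and 34 counts, 23 of them in resistant replicate 1. The inhibitory receptor genes LILRB1 and LILRB2 had 6 and 2 counts in the sensitive cells and 0 in the resistant cells. CD68, a lysosomal macrophage protein, had 3 counts, but 81.7% of its exon bases also belong to another gene on the same strand with 19 and 33 counts. The level of CD68 therefore cannot be read from its count.

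Of 18 receptor and kinase genes that signal with TYROBP or FCER1G, 11 were too low to test and 3 of the other 7 were lower (42.9% beside 13.1%). SYK, the kinase that TYROBP recruits, fell from 70.4 ± 11.3 to 11.5 ± 1.13 CPM, a log2 fold change of −2.61. LILRA2, an activating receptor, fell from 4.41 ± 0.96 to 1.04 ± 0.65 CPM, and PTPN6, a phosphatase that opposes such signals, fell by 0.72 on the log2 scale. The list of 46 further surface and signalling genes had 28 tested members. Of these 14 were lower (50% beside 13.1% of all tested genes) and 1 was higher (beside 9.83%). The median log2 fold change of the list was −1.48. CD300A, an inhibitory receptor, fell from 9.18 ± 1.22 to 0.192 ± 0.0232 CPM, and CORO1A, a leukocyte actin regulator, from 39.7 ± 11.8 to 5.71 ± 0.49 CPM. The log2 fold change was −3.30 for both CD33, a sialic acid-binding receptor, and FCGR2A, an IgG receptor. CSF2RA, a receptor chain for GM-CSF, fell from 7.91 ± 1.78 CPM to 6 counts in resistant replicate 1 and 0 in the other two. CSF3R, the G-CSF receptor, had a log2 fold change of −2.88. ITGAM, the integrin chain CD11b of granulocytes and monocytes, stood at 39.5 ± 9.52 and 51.5 ± 13.2 CPM and was not called (adjusted p = 0.282). CD93, a receptor of myeloid and endothelial cells, rose from 1.95 ± 0.72 to 8.32 ± 1.66 CPM. Of 6 genes beside LILRB1 and LILRB2, 2 were tested and neither was called. Over all 173 further genes, 36 of 111 tested were lower, or 32.4% against 13.1% of all tested genes, and 10 were higher, against a background of 9.83%. Their median log2 fold change was −0.47. These lists were chosen with earlier results of these data known, so the shares describe the lists and are no independent support. Here too a gene could pass the filter on 1 group alone. CST7 had 1, 2 and 4 counts in the resistant libraries and CSF2RA had 6, 0 and 0, too few to pass there. In the other direction, NOX5 had 2, 2 and 0 counts in the sensitive libraries.

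**Figure D4:**
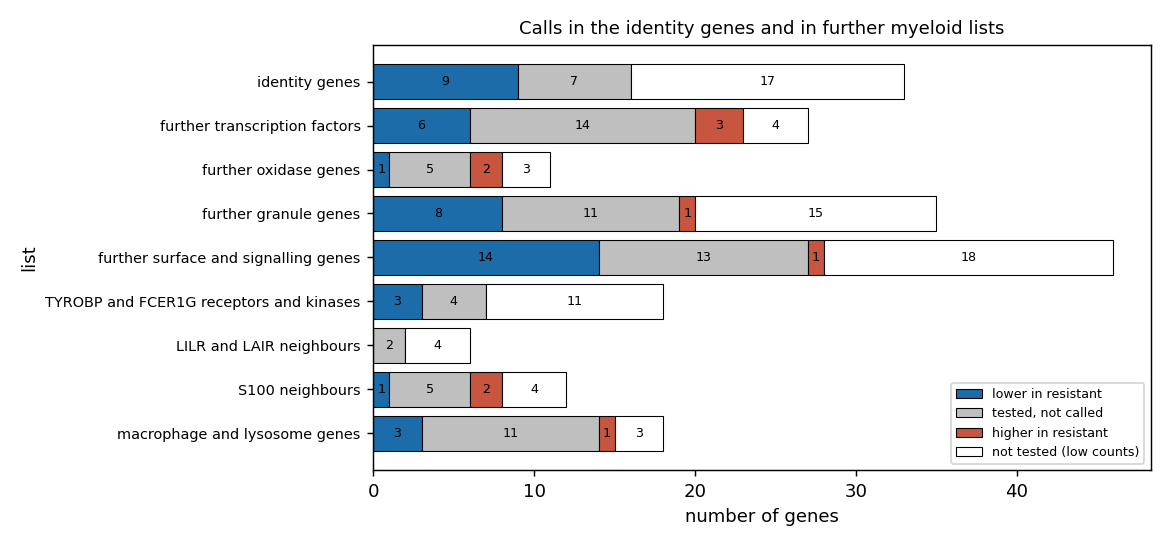
Number of genes lower (blue), tested without a call (grey), higher (red) and too low to test (white) among the 33 identity genes and in 8 further myeloid lists. The identity genes have 9 lower and no higher calls, and the further surface and signalling genes have 14 lower and 1 higher.

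The remaining members were AIF1, LST1, MNDA and FCN1. AIF1 (chr6:31615184-31617021), the calcium-binding IBA1 protein of macrophages, gave 8.26, 7.36 and 30.2 CPM across the sensitive replicates, against 1.88, 2.36 and 3.86 CPM in resistant cells. Sensitive replicate 3 stood 3.86 times above the mean of the other two, and the groups did not overlap. The log2 fold change of AIF1 was −2.50 ± 0.54 (adjusted p = 0.00863), and without sensitive replicate 3 it was −1.53 (adjusted p = 0.0142). LST1 (chr6:31586124-31588909), a leukocyte transmembrane adaptor, lies 26274 bases from AIF1 on chromosome 6. It gave 2.91, 1.92 and 6.0 CPM against 0.194, 0.553 and 0.525 CPM. Again sensitive replicate 3 was the highest, at 2.48 times the mean of the other two, and every resistant library lay below. LST1 had a log2 fold change of −3.08 ± 0.54 (adjusted p = 0.00296). MNDA, an interferon-inducible nuclear protein of monocytes and granulocytes, had 4 counts, all in sensitive replicate 2. FCN1, the monocyte lectin M-ficolin, had none. Of 18 macrophage and lysosome genes 15 were tested, with 3 lower, or 20% beside 13.1% of all tested genes, and 1 higher, beside 9.83%. LIPA, the lysosomal lipase, fell from 0.903 ± 0.521 to 0.0335 ± 0.0581 CPM, likewise a mean under that limit. On the log2 scale LGALS9 (galectin) fell by 1.47 and CTSL (a cathepsin) fell by 0.72. ACP5, the acid phosphatase of osteoclasts, rose from 16.5 ± 4.07 to 57.4 ± 10.9 CPM.

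The members varied by library as well as by line. Per gene, sensitive replicate 3 was the highest of the sensitive libraries in 7 of the 16, replicate 1 in 7 and replicate 2 in 2. Set against the mean log2 CPM of the sensitive libraries, the median member lay at −1.48, −1.81 and −1.56 in resistant replicates 1, 2 and 3. The same median over all tested genes lay between −0.03 and 0.05 in every library. Scaled per kilobase of exon, CYBA led in both lines at 67.9 and 48.6 CPM, followed in the sensitive cells by LYZ at 30.4 and CEBPB at 13.2. In the resistant cells CEBPB at 12.1 and SPI1 at 5.63 CPM per kilobase came before LYZ at 3.21.

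**Figure D5:**
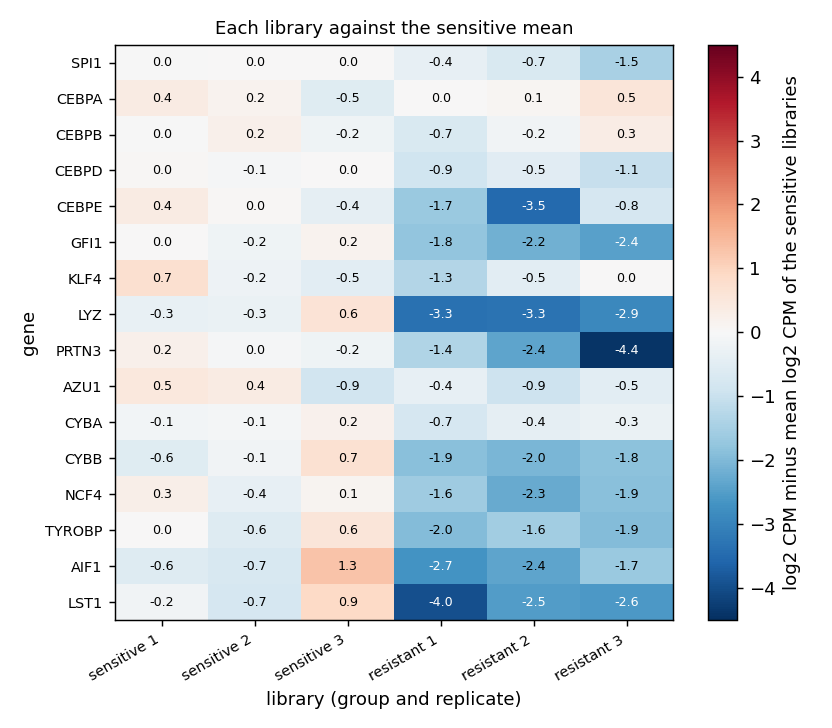
Log2 CPM of the 16 tested genes in each of the 6 libraries, minus the mean log2 CPM of the 3 sensitive libraries. Blue is below and red above that mean. PRTN3 reaches −4.4 in resistant replicate 3, AIF1 1.3 in sensitive replicate 3, and CEBPA stays at or above 0 in all 3 resistant libraries.

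Markers of other cell types were read beside these changes. The 7 T cell genes summed to between 23.1 and 114 CPM in sensitive libraries and from 2.39 to 3.35 CPM in resistant ones. Of these, 3 of 4 tested genes were lower (75% beside 13.1% of all tested genes). The 3 are CD3D, CD3E and CD3G, which lie together at chr11:118304545-118355161. The other, CD5, was not called (log2 fold change 0.28, adjusted p = 0.708 by edgeR). CD3D fell from 47.3 ± 41.8 to 1.95 ± 0.40 CPM and was highest in sensitive replicate 3. That library was the highest sensitive one for 7 of the 16 tested members, LYZ, CYBB, AIF1 and LST1 among them. It was the lowest sensitive one for CEBPA, CEBPB, CEBPE, KLF4, PRTN3 and AZU1. CD3G fell from 9.09 ± 7.34 to 0.052 ± 0.0504 CPM. CD8A had no count in any library, CD2 had 4 counts in each group and TRAC 2 and 4. B cell genes summed to between 8.11 and 8.81 CPM in sensitive libraries and from 17.6 to 24.2 CPM in resistant ones, with CD22 higher, CD79B lower and MS4A1 at 0. NK cell genes summed to between 6.11 and 10.7 against 5.01 to 6.41 CPM, with PRF1 lower among 5 tested. Mast cell, basophil and eosinophil genes summed to between 3.67 and 4.5 against 6.51 to 7.61 CPM, with FCER1A higher, MS4A2 lower and CPA3 at 0. Fibroblast and endothelial genes summed to between 20.2 and 42.4 against 10.1 to 19.9 CPM, with PECAM1 and COL3A1 lower, COL1A2 higher and CDH5 at 0 in the sensitive cells. Erythroid and fusion genes that mark K562 summed to between 1104 and 1969 against 1516 to 1987 CPM, with BCR and ABL1 higher and LMO2 lower among 12 tested. TFRC, one of these, stood at 325.5, 347.2 and 1200 CPM in sensitive replicates 1, 2 and 3 and was not called (adjusted p = 0.756 by edgeR). Beside the calls in these lists, 13.1% of all tested genes were lower and 9.83% higher. Tested were 4 of the B cell genes, 5 of the mast cell, basophil and eosinophil genes and 5 of the fibroblast and endothelial genes. The part of these other genes in the changes of the members was not tested.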

How the data were processed

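RNA of 3 azacitidine-sensitive and 3 azacitidine-resistant K562 libraries was sequenced in pairs from ribosome-depleted, stranded total RNA, per the labels' protocols. The deposited values are raw read counts per gene, 1 column per library. Trimmomatic 0.39, HISAT2 2.2.1, featureCounts (Subread 2.0.3) and GRCh38 are named in the submitters' processing notes, while no source used here states the strand setting, the annotation release or whether pairs were counted once. Over all libraries the value 2 occurred 17682 times and the value 1 occurred 8648 times. If the mates of a pair were counted singly, small counts hold fewer fragments than they show and the limits given for a count of 0 are too low by a factor of 2.

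Of 61487 gene IDs 61369 had a symbol and 58312 were in GENCODE 29, which gave positions and exon lengths. Counts were filtered with filterByExpr (minimum count 10), scaled by TMM and tested with edgeR 4.0.16 in R 4.3.3 (robust quasi-likelihood, resistant against sensitive, n = 3 per group), with Benjamini-Hochberg adjustment over 20891 genes. The scripts were tested on simulated data. Separate cultures are not named beside the label of biological replicate, and p-values then measure only how far these samples spread, which may be technical. Replicates differed beyond sampling noise, with a chi-square per degree of freedom between 16.5 and 141. Each was counted as 1 sample, following the labels. This spread cannot tell separate cultures from technical differences.

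The members, the lists and their order were chosen with earlier results of these data known. Every member is named. Of each further list, up to 4 called genes in each direction with the smallest adjusted p, and of each other-cell list up to 2 with the highest mean CPM, were to be named; any other gene was named after its values were seen. Alternatives were other scalings and filters, DESeq2 1.42.0, limma-voom (limma 3.58.1), a replicate block, a stricter threshold, leaving out each library, and, chosen after seeing the data, leaving out both libraries numbered 3, length and GC offsets, and halved counts. Promoters came from RefSeq. Figures were drawn with matplotlib 3.10.9.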

Additional observations from a re-analysis of the deposited data

How the results depend on the processing

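Over 299 values of the 16 tested members under the alternatives, 260 kept their direction and their side of the threshold, 12 lost a call, 22 gained one and 5 changed sign. The sign changes were CEBPA at −0.037 without sensitive replicate 3, −0.013 without resistant replicate 3 and −0.23 without both libraries numbered 3, and CEBPB at 0.032 with library totals alone and 0.099 without resistant replicate 1. With 1 library left out the log2 fold change ranged from −0.037 to 0.365 for CEBPA and from −0.435 to 0.099 for CEBPB. GFI1, LYZ, CYBB, NCF4, TYROBP, AIF1 and LST1 were called lower in every alternative in which they were tested, CEBPD and PRTN3 were not. Lower calls among the members ranged from 7 to 12 when 1 library was left out and were 14 without both libraries numbered 3, where CEBPB, CEBPE, SPI1, AZU1 and CYBA were added. Higher calls were 0 throughout. Without the filter, 28 members could be tested, 11 were lower, and none of the 12 added genes was called. Over all genes, higher calls were 2054 and lower calls 2741. They were 938 and 1586 at adjusted p below 0.01, from 1051 to 3327 and from 1677 to 3718 when 1 library was left out, and 4645 and 5021 without both libraries numbered 3. Scaling by library totals alone gave 3041 higher and 2118 lower and shifted the median over all genes from 0.03 to 0.20 (log2), where the members had a median of −1.61. Among the further genes, higher calls were 22 without both libraries numbered 3, and lower calls were 23 at adjusted p below 0.01 and between 23 and 42 when 1 library was left out. The cause of these shifts was not tested, beyond the smaller number of samples. Libraries with the same replicate number shared deviations with a correlation of 0.18, 0.08 and 0.27, the value for number 3 being the highest of all. Those with different numbers ran from −0.28 to 0.21. Sensitive replicate 2 correlated more with resistant replicate 1 (0.21) than with its own number, so the numbers were not taken as pairs. Whether libraries of the same number share a batch was not tested. The fit with a replicate block called 2859 genes higher and 3582 lower, and 12 members lower, among them SPI1, CEBPE and CYBA. At this depth a gene below about 0.0902 CPM in a library cannot be told from 0.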
